A study of Arabidopsis thaliana with 12 samples.

Results

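The comparison described here set Arabidopsis thaliana seedlings collected after 8 min in 1 mM H2O2 against seedlings collected at 0 min in water. Its members are the 6 libraries that the labels assign to these times (3 at each), out of 12 libraries in the experiment, the others having been collected after 2 and 4 min of H2O2. All seedlings were wild type of the Col ecotype, 5 days old, and grown in liquid 0.5 x MS medium. By the study's methods, each library was made from a pool of seedlings and the treatment was repeated for each replicate. Water-treated seedlings collected at 8 min are not among these groups, so the effect of H2O2 and that of the time since liquid was added cannot be told apart. RNA came from whole seedlings, so that fewer cells of a type and less RNA per cell cannot be told apart either.

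H2O2 is made in the plant cell wall space by NADPH oxidases and inside cells by chloroplasts, mitochondria and peroxisomes, and it acts as a signal as well as an oxidant. It is known to open calcium channels, to activate MAP kinases and to change the redox state of regulatory proteins, and genes that respond to it include those for ERF, WRKY and zinc finger transcription factors. Catalases, peroxidases and peroxiredoxins remove it.

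The 6 libraries held between 15993787 and 26618274 reads on genes, with a median of 17558530, and 20972 genes were listed. None of these had 0 reads in any library. The values are normalized read counts, that is reads on a gene divided by 1 size factor for each library, and changes below are on the log2(normalized count + 1) scale unless a fold of mean counts is given. The summed count of 6 shoot marker transcripts was between 755145 and 974228 at 0 min and between 721362 and 909423 at 8 min. For 10 root markers the sum was between 69029 and 94526 at 0 min and between 75522 and 81446 at 8 min. Taken singly, 4 of the 6 shoot markers and 3 of the 10 root markers had a log2 change above 0. At an unadjusted p under 0.05 (limma), 3 root markers were lower and 0 higher, and DESeq2 called 1 lower. For the shoot markers 1 was higher and 1 lower at that p (limma). No marker of either organ was at 0, but neither was any other listed gene, so this says nothing about the organs present. A gene without reads in some library is not among those listed. The ranges of the summed counts of the groups overlapped for both organs.

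After 8 min of H2O2, 251 transcripts had an enhanced steady-state level, which is 1.29% of the 19485 tested, and 10 transcripts had a reduced one, which is 0.0513% (limma, Benjamini-Hochberg adjusted p under 0.05). Without adjustment, 1564 were higher and 1108 lower at a p under 0.05. The 251 had a median log2 change of 1.01, from 0.27 to 4.70, while the median over all tested transcripts was -0.0046. A change of at least 1 was reached by 127 of them and one of at least 2 by 28, whereas 0 of the 10 reduced transcripts fell by 1 or more. In each of the 251 the 3 libraries at 8 min lay above the 3 at 0 min, an arrangement found in 8.56% of all tested transcripts. The reverse arrangement was found in 8.23%, all 10 reduced transcripts included. DESeq2 on the recovered reads called 374 transcripts higher (1.92%) and 78 lower (0.4%), and 245 of the 251 were among the former. The size of the response differed between the treated libraries, with a median log2 change of the 251 against the 0 min mean of 1.12 in 8 min replicate 1, 0.99 in replicate 2 and 0.86 in replicate 3. Leaving out 8 min replicate 1 lowered the count of enhanced transcripts to 151 and of reduced ones to 0, and leaving out 0 min replicate 3 gave 165 and 4. Of the 251, 147 passed in each of the 6 fits that left out 1 library, and 147 passed in a fit to the 6 libraries alone.

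**Figure D1:**
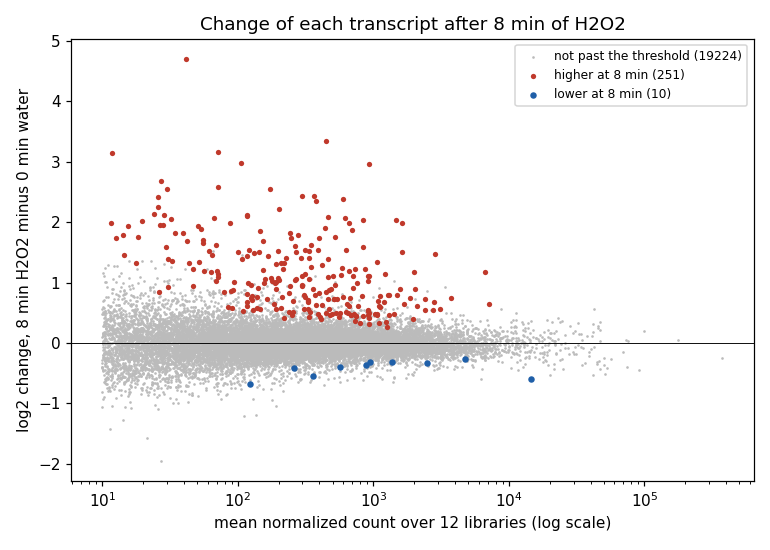
Each point is 1 of the 19485 tested transcripts, with its mean normalized count over the 12 libraries on a log axis and its log2 change from 0 min water to 8 min H2O2. The 251 enhanced transcripts (red) spread up to 4.70 and the 10 reduced ones (blue) lie between -0.27 and -0.68.

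The largest rise from a level that was well measured at 0 min was that of DIC2 (AT4G24570), a dicarboxylate carrier of the mitochondrial inner membrane. Its normalized count was 101, 89.8 and 108 in the water libraries and 1189, 1059 and 826 after 8 min of H2O2. Every treated library was far above every water library, and the mean rose 10.3-fold, with a log2 change of 3.34 and a standard error of 0.22 (limma adjusted p = 6.55e-06). AT3G10930, which encodes an uncharacterized protein, had counts of 29.4, 23.6 and 23.6 at 0 min and of 262, 211 and 161 at 8 min, and it rose by 2.98 (adjusted p = 2.34e-05, limma). STZ (AT1G27730), the C2H2 zinc finger repressor also known as ZAT10, had 202, 219 and 211 counts at 0 min and 1977, 1695 and 1313 at 8 min. The water libraries of STZ were nearly alike and the treated ones varied more, and the rise of 2.96 had a standard error of 0.24 (limma adjusted p = 2.28e-05). DLAH (AT1G30370), annotated as an alpha/beta-hydrolase, went from 23.5, 30.3 and 17.3 to 155, 114 and 170 counts, a rise of 2.59 (limma adjusted p = 0.000231).

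Promoters of these 4 genes are shown because they had the largest rises among genes with a mean of at least 20 counts at 0 min. Each is the 250 bases before the annotated start of the gene, on the gene's own strand, from the RefSeq TAIR10.1 genome, and capitals mark matches on either strand to 1 or more of the 7 short motifs counted further on. The windows are chr4:12686209-12686458 (plus strand) for DIC2, chr3:3420933-3421182 (minus strand) for AT3G10930, chr1:9649324-9649573 (minus strand) for STZ and chr1:10720844-10721093 (minus strand) for DLAH.
DIC2: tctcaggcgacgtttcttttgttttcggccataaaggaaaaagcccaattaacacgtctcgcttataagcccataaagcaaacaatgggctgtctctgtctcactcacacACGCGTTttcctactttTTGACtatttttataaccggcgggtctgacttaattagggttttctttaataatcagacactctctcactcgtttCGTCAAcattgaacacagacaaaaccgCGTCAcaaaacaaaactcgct
AT3G10930: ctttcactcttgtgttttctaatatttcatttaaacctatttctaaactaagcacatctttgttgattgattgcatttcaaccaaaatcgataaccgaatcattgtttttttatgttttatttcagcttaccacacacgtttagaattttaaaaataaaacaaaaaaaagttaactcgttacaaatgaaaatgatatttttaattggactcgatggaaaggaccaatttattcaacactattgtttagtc
STZ: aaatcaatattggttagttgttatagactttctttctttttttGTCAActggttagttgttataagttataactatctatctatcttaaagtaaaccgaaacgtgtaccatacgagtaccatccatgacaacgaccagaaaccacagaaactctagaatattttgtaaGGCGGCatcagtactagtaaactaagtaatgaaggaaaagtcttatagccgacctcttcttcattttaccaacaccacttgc
DLAH: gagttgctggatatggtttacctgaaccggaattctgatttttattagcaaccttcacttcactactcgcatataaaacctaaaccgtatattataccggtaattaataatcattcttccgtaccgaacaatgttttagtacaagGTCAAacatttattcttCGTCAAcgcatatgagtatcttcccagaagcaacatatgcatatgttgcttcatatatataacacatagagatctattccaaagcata
In the DIC2 window the run of capitals nearest the left end holds both CGCGTT, the rapid stress response element, and ACGCGT, the core bound by calmodulin-binding CAMTA factors, which overlap there. The other capitals in this window are TTGAC, the W-box core that WRKY factors bind, and TGACG, the core bound by TGA factors, on either strand. The STZ window holds a W-box core and a GCC box, the element that ERF factors bind, while the DLAH window holds W-box cores, one of them overlapping a TGA core. None of the 7 motifs was found in the AT3G10930 window, which says only that these letters are not in it.

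**Figure D2:**
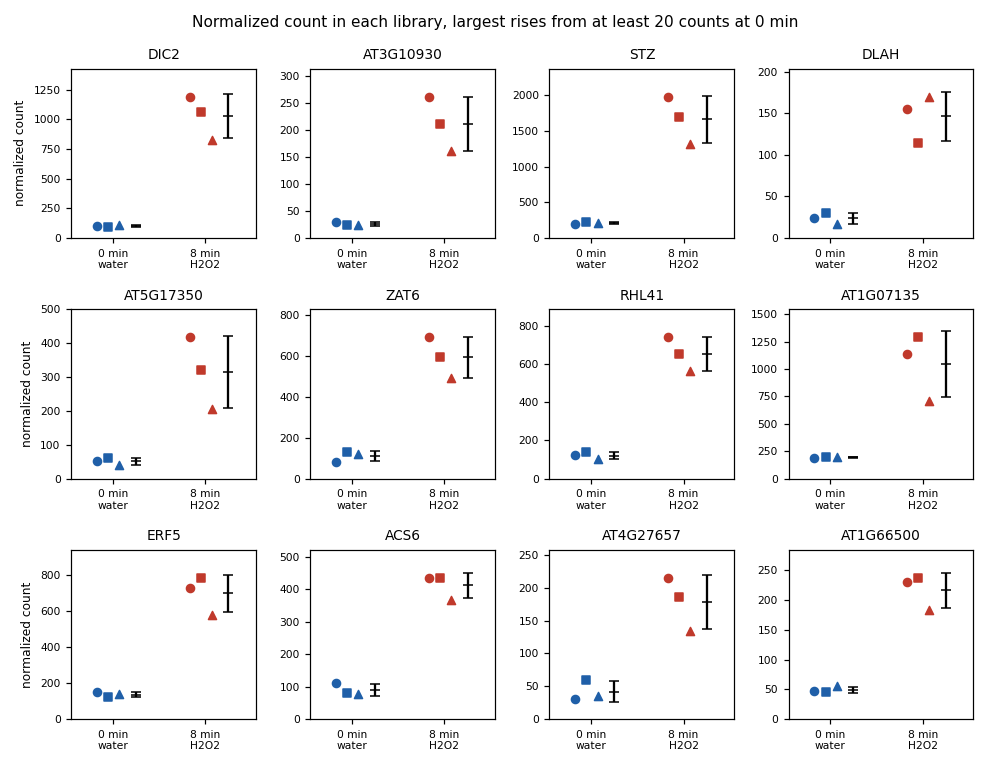
Normalized count in each library (circle, square and triangle for replicates 1, 2 and 3) for the 12 largest rises among genes with a mean of at least 20 counts at 0 min, with the mean and SD beside the points. In every panel the 3 libraries at 8 min lie above the 3 at 0 min, as for STZ, with 1313 to 1977 against 202 to 219.

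A few of the largest log2 changes belonged to transcripts close to the limit of counting in water. AT5G20260, annotated as an exostosin family protein, had 3, 3 and 3 reads in the water libraries and 112, 141 and 101 in the treated ones, a ratio of 34.0 with a 95% counting interval from 17.7 to 74.9. AT4G27654, an uncharacterized protein, had 1, 2 and 2 reads and then 19, 47 and 18, a ratio of 14.5 (5.98 to 45.8). Both passed the test in each of the 6 fits that left out 1 library. However, in water both were under the mean count of 10 needed for testing, and they reached it through the treated libraries. They were also named for their large rises, so the passes and intervals are no separate evidence of a rise. Their log2 changes of 4.70 and 3.15 depend on the count added before the log, and the intervals cover counting error only. In all, 26 of the 251 had a mean under 20 counts at 0 min. Among them SIB1 (8, 6 and 9 reads in water), CML37 (6, 5 and 8) and AT5G11140 (12, 4 and 3) also averaged under 10 counts in water. These genes too reached the mean needed for testing through treated libraries, so their calls are no separate evidence of a rise. AT5G11140, a phospholipase-like protein, with 11.8, 4.49 and 2.72 counts before and 34.0, 16.1 and 26.5 after, was among the weakest of the large rises (limma adjusted p = 0.0431), and its highest adjusted p was 0.235, without 8 min replicate 1. AT4G14450 likewise went from 0.0125 to 0.0878 (limma adjusted p) without that library.

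Among abundant transcripts, HSPRO2 (AT2G40000), the orthologue of a nematode resistance gene of sugar beet, had the highest count of those enhanced. It stood at 4781, 3728 and 5142 at 0 min and at 11117, 11398 and 8269 at 8 min, with no overlap and a 2.26-fold higher mean (limma adjusted p = 0.000818). BT5 (AT4G37610), a BTB and TAZ domain protein, had 1324, 1248 and 1331 counts and then 3185, 2974 and 2657, a rise of 1.17 with a standard error of only 0.09 (limma adjusted p = 1.88e-05). CR88 (AT2G04030), a chloroplast HSP90 chaperone, had 5261, 4901 and 4768 counts and then 9422, 6644 and 7585. Its rise of 0.65 passed with an adjusted p of 0.0447 but not without 8 min replicate 1 (0.212, limma). Others of high level were EXO, PUP14, a purine permease, RAV2, AT4G32020 and AT5G42050, with rises from 0.54 to 0.75. Of these, EXO, PUP14 and RAV2 each held in 2 of the 6 leave-one-out fits, with highest adjusted p values of 0.108 (EXO) and 0.24 (RAV2) without 8 min replicate 1 and 0.126 (PUP14) without 0 min replicate 3 (limma).

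The gene lists that follow are selections of known stress and signalling genes, not whole families. Their counts are to be read against the 1.29% higher and 0.0513% lower among all tested transcripts, and for the larger families a count over every tested gene whose annotation carries the family's name is also given. Those wider groups were made after the values were seen, and they miss genes annotated in other words.

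Transcription factors of the ERF family, which bind GCC boxes and act downstream of ethylene and MAP kinases, had 7 of 24 listed members higher and 0 lower. Over all 71 tested genes annotated as AP2/ERF proteins, DREB factors included, 13 (18.3%) were higher. ERF5 (AT5G47230) had 148, 120 and 136 counts at 0 min and 726, 783 and 580 at 8 min, a rise of 2.35 with a standard error of 0.16 (limma adjusted p = 6.55e-06). ERF104, a substrate of the MAP kinase MPK6, had 513, 640 and 549 counts and then 2513, 2683 and 1823, and it rose by 2.03 (limma adjusted p = 4.44e-05). ERF6, ERF13, ERF11, ERF-1 and ERF4 rose by between 1.09 and 2.14. All 7 passed in each fit that left out 1 library and in the fit to 6 libraries. The other members lay between -0.59 (ORA59, adjusted p = 0.518) and 1.15 (TDR1, 6.81 to 16.1 counts, adjusted p = 0.31, limma), and the median change of the list was 0.06.

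Of 6 listed DREB factors, which bind the drought response element, 3 rose. DREB2A (AT5G05410), a regulator of drought and heat genes, had 221, 217 and 379 counts and then 1018, 908 and 773, a rise of 1.76 (limma adjusted p = 0.000232). CBF2, a regulator of cold acclimation, had 14.7, 13.5 and 15.4 counts and then 50.5, 51.4 and 37.3. Its adjusted p of 0.00772 became 0.0503 without 8 min replicate 1 (limma). DREB26 rose by 1.03, and the other DREB members had changes from 0.31 to 0.55 that did not pass.

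Of 13 listed C2H2 and CCCH zinc finger proteins 7 were enhanced, while of all 373 tested genes with zinc finger in their annotation 11 (2.95%) were. Beside STZ, the C2H2 proteins ZAT6 (81.3, 128 and 120 counts, then 691, 593 and 494) and RHL41 (122, 137 and 102, then 741, 651 and 564), the latter also known as ZAT12, rose by 2.44 and 2.43. Both proteins are known for roles in the response to oxidative stress, and in both the groups were far apart (limma adjusted p = 3.25e-05 and 3.89e-05). The CCCH proteins SZF1, with 1044, 611 and 751 and then 3781, 3388 and 2341 counts, and CZF1, with 1003, 891 and 1016 and then 3203, 2741 and 2394, are linked to salt tolerance. They rose by 1.99 and 1.51, so that among the zinc finger genes the more abundant as well as the rarer transcripts were enhanced. ZAT11 rose by 1.70 and ZF2, also called AZF2, by 0.67, and ZF2 kept its call in 2 of the 6 fits that left out 1 library (highest adjusted p = 0.155, limma, without 8 min replicate 1).

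WRKY factors, regulators of defence and stress genes that bind W-boxes, were higher in 7 of 29 listed cases and in the same number, 7 of 55 (12.7%), over all tested genes annotated as WRKY. WRKY40 (AT1G80840) had 306, 153 and 267 counts at 0 min and 927, 1049 and 678 at 8 min, and rose by 1.90 (limma adjusted p = 0.000818). WRKY33 (AT2G38470), needed for resistance to necrotrophic fungi, had 825, 605 and 643 counts and then 2001, 1606 and 1639, a rise of 1.34 (limma adjusted p = 0.00011). WRKY46, WRKY53, WRKY18, WRKY22 and WRKY70 rose by between 0.74 and 1.22. These smaller rises were less firmly measured, since the count of WRKY calls was 3 without 0 min replicate 2, 0 min replicate 3 or 8 min replicate 1, and 2 in the fit to 6 libraries. Without 8 min replicate 1 the adjusted p was 0.101 for WRKY53, 0.185 for WRKY18, 0.177 for WRKY22 and 0.139 for WRKY70 (limma). WRKY53 shares stretches of 50 bases with the oppositely oriented neighbour AT4G23800, and whether reads were counted by strand is not given in the sources used here. The same limit applies to other genes named below, among them MYBR1 (657 of 1936 stretches, with CYP81G1) and AT5G39670 (514 of 840, with AT5G05995). SOBIR1 shares 429 of 2035 with RAP and AT-HSFB2B 303 of 2218 with AT4G05910, both on the opposite strand. WRKY48 (142 to 242 counts, adjusted p = 0.166, limma) and WRKY75 (29.0 to 46.7, adjusted p = 0.195) did not pass.

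MYB factors were higher in 6 of 11 listed cases and in 8 of 96 (8.33%) tested genes with MYB in their annotation. The list had 2 to 5 calls when 1 library was left out. MYB77, which acts in auxin responses and lateral roots, had 167, 168 and 198 counts and then 552, 593 and 410, a rise of 1.52 (limma adjusted p = 0.000668). MYB96, a regulator of cuticular wax genes, rose by 1.18. MYB73, MYB51, MYBR1 (MYB44) and MYB30 rose by between 0.44 and 0.79, and all 4 lost the call without some library, with highest adjusted p values from 0.0574 to 0.14 (limma). The lowest count of MYB calls, 2, came without 0 min replicate 3, and it was 3 without 0 min replicate 2 or 8 min replicate 1. Of 12 listed NAC factors, and of all 55 tested genes annotated as NAC domain proteins (7.27%), 4 were higher, namely ATAF2, NAC102, NAC062 and ATAF1, by between 0.52 and 1.11. NAC062, a membrane-bound factor, had 442, 396 and 475 counts and then 786, 736 and 663, with a standard error of 0.09 (limma adjusted p = 0.000434). ATAF1 held in 1 of the 6 leave-one-out fits, its adjusted p of 0.0468 going to 0.228 without 8 min replicate 1.

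Heat shock factors, which regulate chaperone genes, were higher in 3 of 18 listed cases (HSF A4A, HSFB2A and AT-HSFB2B, by 0.83, 0.77 and 0.54). The count was 1 without 0 min replicate 3 or without 8 min replicate 1. In the fit to 6 libraries 0 passed. HSF A4A, which has been proposed as a sensor of H2O2, had 231, 162 and 163 counts and then 372, 325 and 285. Among 22 listed heat shock protein transcripts, which do not include the chloroplast HSP90 CR88 described above, 0 passed with limma, 6 had an unadjusted p under 0.05 in the upward direction, DESeq2 called 3, edgeR 0 and the fit to 6 libraries 2. HSP70 had a mean of 747 counts at 0 min and 1287 at 8 min (adjusted p = 0.124, limma), and HSP90.1 had 509 and 839 (adjusted p = 0.146, limma).

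**Figure D3:**
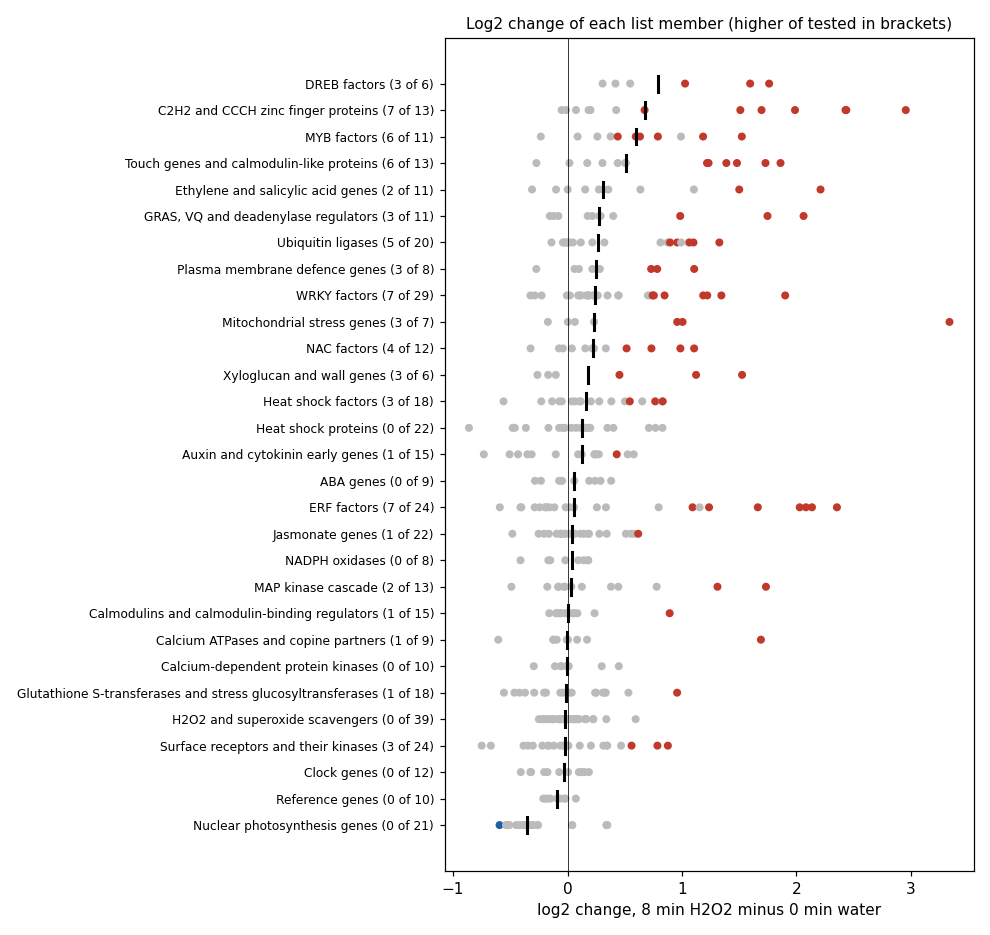
Log2 change of each tested member of 29 gene lists, sorted by the list's median (black bar), with red for enhanced, blue for reduced and grey for not past the threshold. Numbers in brackets are the enhanced and the tested members, such as 7 of 24 ERF factors and 0 of 39 scavengers.

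Of 13 listed touch-induced and calmodulin-like genes 6 were higher, among them the wall enzyme TCH4 as well as small calcium-binding proteins. CML23 (AT1G66400) had 54.8, 55.0 and 65.4 counts and then 198, 251 and 198, a rise of 1.86 (limma adjusted p = 1.93e-05). TCH2 (CML24) had 487, 412 and 382 counts and then 1115, 1123 and 796, and TCH4, a xyloglucan-modifying enzyme named for its induction by touch, had 1428, 1498 and 1531 and then 4267, 5881 and 2839. They rose by 1.23 and 1.48, and the treated libraries of TCH4 varied widely among themselves. CML37, CML38 and AT5G39670 rose by 1.73, 1.39 and 1.22, and CML37 and CML38 each held in 1 of the 6 leave-one-out fits, with a highest adjusted p of 0.116 without 8 min replicate 1 and of 0.141 without 0 min replicate 2 (limma). CML37, with 6, 5 and 8 reads in water, reached testing only through its treated libraries. TCH3 had a mean of 2982 and then 4154 counts (adjusted p = 0.197, limma). TCH2 shares stretches of 50 bases with AT5G37760 on the opposite strand. Touch genes are known to respond to mechanical stimulation, and the effects of H2O2 and of adding liquid cannot be told apart for them here.

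Other EF-hand proteins rose as well. AT4G27280 had 302, 397 and 268 counts and then 1491, 1416 and 1073, a rise of 2.04, and AT3G29000 had 11.8, 15.7 and 14.5 and then 68.0, 51.4 and 63.7, a rise of 2.05. Of 30 tested genes whose annotation reads calcium-binding EF-hand, 6 were higher, a grouping made after the values were seen. BAP1 (AT3G61190), a membrane-binding repressor of cell death that partners the copine BON1, had 71.5, 77.5 and 69.0 counts and then 241, 240 and 228, with very little spread between treated libraries and a rise of 1.69 (limma adjusted p = 0.000436). CBP60G, a calmodulin-binding activator of salicylic acid synthesis, rose by 0.89. It was the 1 enhanced member among 15 calmodulins and calmodulin-binding regulators, and BAP1 was the 1 among 9 calcium ATPases and copine partners. Of 10 calcium-dependent protein kinases 0 passed with limma, 2 had an unadjusted p under 0.05, and DESeq2 called 1 and edgeR 0, while limma called 1 without 0 min replicate 1 or without 8 min replicate 3. CPK32 was nearest, with 836 and then 1143 counts on average (adjusted p = 0.0612, limma).

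Among listed enzymes that make or remove H2O2 no transcript passed the test, and with 1.29% of all transcripts higher, lists of this size would hold few calls in any case. Of 8 NADPH oxidases 0 passed with limma, 0 had an unadjusted p under 0.05, and DESeq2 and edgeR called 0. RBOHD, the oxidase of the systemic ROS wave, had a mean of 613 counts at 0 min and 707 at 8 min (log2 change 0.18, adjusted p = 0.628, limma). Of 39 catalases, superoxide dismutases, ascorbate and glutathione peroxidases and peroxiredoxins 0 were higher or lower with limma, DESeq2 or edgeR, and at an unadjusted p under 0.05 there were 0 higher and 4 lower. CAT2, the main leaf catalase, had means of 16782 and 21904 counts (adjusted p = 0.429, limma), and CAT3 had 43866 and 37778 (adjusted p = 0.394). CAT1 had 1002 and 840 (adjusted p = 0.246). A p that misses the threshold does not show that these levels were the same. Among 18 glutathione S-transferases and stress glucosyltransferases, UGT73B5, an enzyme induced by oxidative stress, was higher (108, 97.7 and 89.9 counts, then 214, 164 and 200, a rise of 0.96, limma adjusted p = 0.00435). Without 0 min replicate 1, 2 of this list were higher.

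Of 7 mitochondrial stress genes 3 were higher. Beside DIC2, the related dicarboxylate carrier UCP5 (DIC1) had 203, 230 and 175 counts and then 478, 331 and 381, and BCS1, an outer membrane ATPase also known as OM66, had 82.3, 55.0 and 50.9 and then 146, 98.9 and 132. UCP5 rose by 0.96 and BCS1 by 1.01, the latter in only 2 of the 6 fits that left out 1 library (highest adjusted p = 0.178, limma, without 8 min replicate 1). AOX1A, the alternative oxidase and the usual marker of mitochondrial retrograde signalling, had means of 276 and 327 counts (log2 change 0.23, adjusted p = 0.458, limma). NDB2, an external NADH dehydrogenase, had 118 and 117.

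In the MAP kinase cascade 2 of 13 genes were higher. MKK9 (AT1G73500), a MAP kinase kinase upstream of ethylene and phytoalexin synthesis, had 126, 128 and 121 counts and then 421, 560 and 310, a rise of 1.73 (limma adjusted p = 0.000218). AT2G30020, a PP2C phosphatase, rose by 1.31 from 143, 120 and 126 to 382, 293 and 300 counts. MPK3 (1409 to 1834, adjusted p = 0.0599) and MKK4 (194 to 263, adjusted p = 0.0667, limma) fell just short of the threshold, and DESeq2 called 4 members of the list. Among 24 surface receptors and their kinases 3 were higher, namely the chitin receptor LYK5 (65.6, 83.1 and 75.4 counts, then 149, 128 and 135), SOBIR1, a partner of receptor-like proteins (751, 564 and 617, then 1265, 1130 and 937), and RIPK. They rose by 0.88, 0.79 and 0.56, and the count of calls in the list was 1 without 8 min replicate 1, where the adjusted p was 0.0595 for LYK5 and 0.074 for RIPK (limma).

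Ubiquitin ligases were higher in 5 of 20 listed cases with limma and 8 with DESeq2. Over all 343 tested genes annotated with a RING finger or a U-box, 9 (2.62%) were higher with limma. ATL2, a RING protein first described as an early elicitor response gene, had 352, 341 and 293 counts and then 775, 738 and 609, a rise of 1.10 (limma adjusted p = 0.000284). CNI1 (ATL31), a regulator of the carbon to nitrogen response, PUB22 and CMPG1, both U-box proteins of immunity, and AT1G20823 rose by between 0.90 and 1.33. AT1G20823 kept its call in 1 of the 6 leave-one-out fits (highest adjusted p = 0.192, limma, without 8 min replicate 1). PUB23 had means of 130 and 269 counts (adjusted p = 0.0806) and PUB24 had 42.4 and 76.8 (adjusted p = 0.056, limma). CAF1a (AT3G44260), a deadenylase that shortens poly(A) tails, had 256, 250 and 197 counts and then 1080, 1081 and 796, a rise of 2.06 (limma adjusted p = 7.38e-05). Its paralogue CAF1b rose by 0.98 and SIB1, a VQ protein that works with WRKY33, by 1.75, and CAF1b had an adjusted p of 0.11 without 8 min replicate 1 (limma). These were 3 of 11 GRAS, VQ and deadenylase regulators, and the GRAS factors of the list did not pass. SIB1, with 8, 6 and 9 reads in water, reached testing only through its treated libraries.

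Of the hormone genes, those for 1-aminocyclopropane-1-carboxylic acid synthase, the rate-limiting enzyme of ethylene synthesis, changed most. ACS6 (AT4G11280), which is stabilised by MAP kinases, had 111, 79.7 and 77.2 counts and then 434, 435 and 368, a rise of 2.21 (limma adjusted p = 0.000203). ACS7 had 145, 137 and 107 counts and then 628, 280 and 279, so that 8 min replicate 1 stood well above the others, and it rose by 1.50 (adjusted p = 0.00542). ACS11 had means of 199 and 439 (adjusted p = 0.0852, limma). These 2 were the enhanced members among 11 ethylene and salicylic acid genes, and EDS16 (ICS1), which makes salicylic acid, had 554 and 448 (adjusted p = 0.246).

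For jasmonate, abscisic acid, auxin and cytokinin each list held 0 or 1 call with limma. Such counts are too small to be set apart from the 1.29% found over all transcripts, so they are no result about these lists. Jasmonate genes were higher in 1 of 22 listed cases, AOC3, an allene oxide cyclase, by 0.62 with an adjusted p of 0.0282 (limma). Its call held in 1 of the 6 leave-one-out fits (highest adjusted p = 0.15, without 8 min replicate 1), the one without 8 min replicate 2, where 2 of the list were higher. JAZ1 (382 to 569, adjusted p = 0.0628) and TIFY7 (608 to 906, adjusted p = 0.0582), repressors of the pathway, did not pass with limma. DESeq2 called 3 of the 22 jasmonate genes higher, against 1.92% of all tested. Of 9 abscisic acid genes 0 passed with limma, DESeq2 or edgeR, and 2 had an unadjusted p under 0.05. Of 15 early auxin and cytokinin genes only ARR9, a repressor of cytokinin signalling, was higher, by 0.43 (adjusted p = 0.0372, limma), a call that held in 1 of the 6 leave-one-out fits and had its highest adjusted p, 0.117, without 8 min replicate 3.

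Genes of the cell surface gave 3 of 6 xyloglucan and wall genes and 3 of 8 plasma membrane defence genes as higher. GATL10, a glycosyltransferase, had 96.0, 116 and 93.6 counts and then 306, 313 and 264, a rise of 1.53 (limma adjusted p = 2.34e-05). XTR6 (XTH23) and XTH18, which cut and rejoin xyloglucan, rose by 1.12 and 0.45. NHL3, a plasma membrane protein of bacterial defence, had 590, 587 and 560 counts and then 1378, 1472 and 960, and NDR1, required by several resistance proteins, had 105, 84.2 and 95.4 and then 169, 170 and 152. NHL3 rose by 1.11, NDR1 by 0.78 and the syntaxin SYP122 by 0.73. XTH18 and SYP122 each held in 2 of the 6 leave-one-out fits, with a highest adjusted p of 0.206 without 8 min replicate 1 and of 0.129 without 0 min replicate 3 (limma).

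The reduced transcripts changed little and were less firmly measured than the enhanced ones. LHCB2.2 (AT2G05070), a light-harvesting chlorophyll a/b protein of photosystem II, had 17923, 23024 and 19040 counts at 0 min and 12130, 14917 and 12632 at 8 min, and it fell by 0.59 (limma adjusted p = 0.0361). The groups did not overlap, but the water libraries varied, and LHCB2.2 shares stretches of 50 bases with LHCB2.1 (means of 26413 and 18275, adjusted p = 0.0754), between which reads can be split. cwINV6 (AT5G11920), a fructan exohydrolase, had 196, 130 and 159 counts and then 112, 98.2 and 89.2, a fall of 0.68 (adjusted p = 0.0404, limma). TUB2, a beta tubulin, had 5518, 5430 and 5319 and then 4382, 4582 and 4513, and SPR1, a protein of cortical microtubules, had 1517, 1656 and 1459 and then 1195, 1253 and 1255. TUB2 fell by 0.27 and SPR1 by 0.32, both with narrow spread within the groups. The others were ARFA1F, EXL4, FHY1, AT5G08680, AT5G52540 and AT1G62790, with falls from 0.32 to 0.55. Of the 10 reduced transcripts 0 passed in all 6 fits that left out 1 library, their highest adjusted p values lying between 0.106 and 0.212, for 8 of them without 8 min replicate 1 (limma). Also, the fit to 6 libraries called 0 transcripts lower at an adjusted p under 0.05, while DESeq2 called 78.

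**Figure D4:**
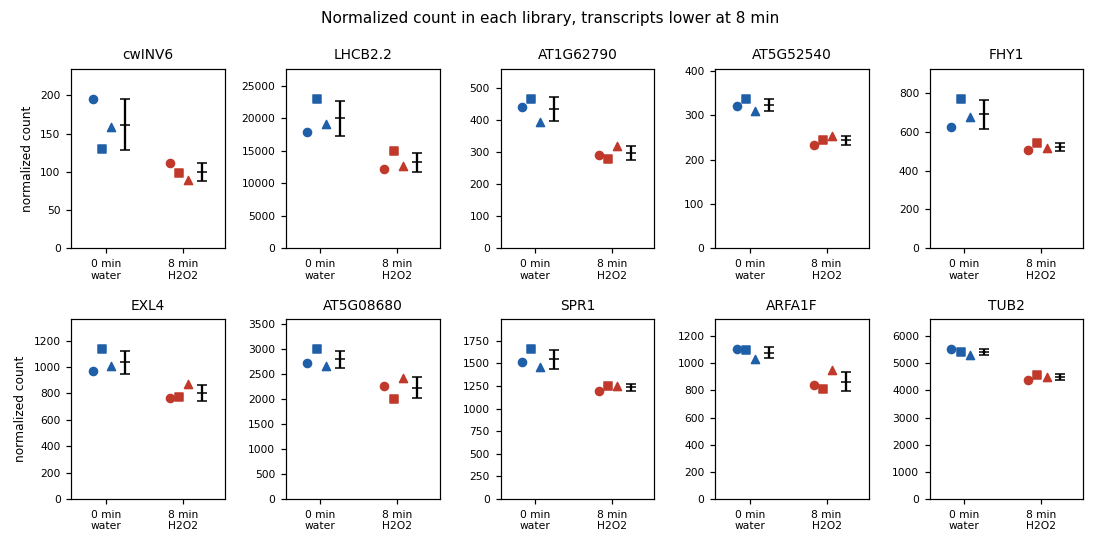
Normalized count in each library (circle, square and triangle for replicates 1, 2 and 3) for the 10 transcripts lower at 8 min, with the mean and SD beside the points and each axis from 0. The libraries at 8 min lie below those at 0 min in every panel, by a modest amount, as for TUB2 with 4382 to 4582 against 5319 to 5518.

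Nuclear photosynthesis genes as a list had a median log2 change of -0.35, against -0.0046 for all tested transcripts, with 0 of 21 higher and 1 lower. An unadjusted p under 0.05 in the downward direction (limma) was reached by 14 of the 21, against 1108 of all 19485 tested. DESeq2 called 8 lower, against 0.4% of all tested, and edgeR 1. The fit to 6 libraries and the one after quantile normalization called 0 of the list lower. In 10 of the 21 all 3 treated libraries lay below all 3 water libraries, an arrangement found in 8.23% of all tested transcripts. The list was not uniform. RBCS1B, a small subunit of Rubisco, had means of 18076 and 23434 counts (adjusted p = 0.422) and RBCS2B 37354 and 48749 (adjusted p = 0.494), whereas the light-harvesting gene CAB2 had 56415 and 38674 (adjusted p = 0.119, limma). Of 12 clock genes 0 passed with limma, DESeq2 or edgeR and 1 had an unadjusted p under 0.05. Of 10 commonly used reference genes 0 passed with any of these tools, 4 had an unadjusted p under 0.05 downward, and their median change was -0.09. ACT2 had means of 21545 and 22653 counts (adjusted p = 0.806, limma).

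Many enhanced transcripts came from genes without introns. Of the 251, 141 (56.2%) had a single exon, against 15.3% of the 19384 tested genes with a gene model, and among the 127 with a change of at least 1 the share was 67.7%. Of 2966 single-exon genes 4.75% were higher, against 0.67% of 16418 with several exons. The share fell with every added class of exon number, from 1.63% with 2 exons to 0.238% with 6 to 9 and 0.0522% (2 of 3831) with 10 or more. The median transcript length was 1464 bases for the enhanced genes and 1747 for all, and among the shortest tested genes (up to 1259 bases) 82.9% of the enhanced genes had a single exon, against 25.2% of those tested. Among the longest (2332 bases or more) the shares were 39.1% and 7.96%. All 7 enhanced ERF genes had 1 exon.

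**Figure D5:**
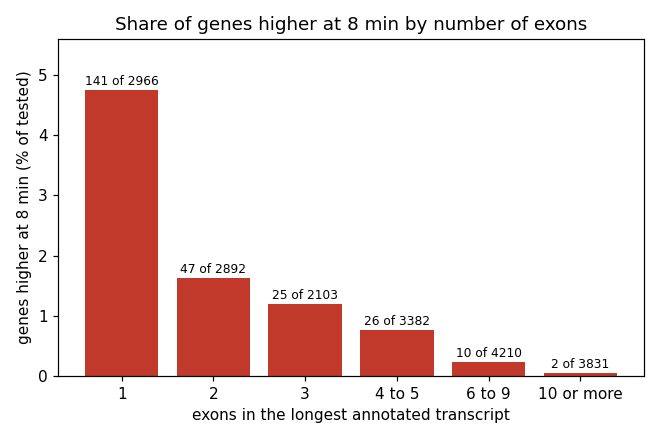
Share of tested genes that were higher at 8 min, by the number of exons of the longest annotated transcript, with the counts above the bars. The share was 4.75% for genes with 1 exon and 0.0522% for those with 10 or more.

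Some enhanced genes lay side by side. There were 12 pairs of adjacent tested genes in which both were higher, involving 20 genes (7.97% of the 251), and 10 of the pairs were on the same strand. How many such pairs a share of 1.29% higher would give was not worked out. Nor was the same-strand share over all adjacent genes, so these counts do not measure clustering. Some pairs share sequence, such as AT5G41740 and AT5G41750 with 417 stretches of 50 bases in common. The longest run was on chromosome 1, where AT1G72900, AT1G72910, AT1G72920, TIR and AT1G72940, all annotated as Toll-Interleukin-Resistance domain proteins, follow each other between bases 27432178 and 27443859 of TAIR10.1. AT1G72910 had 17.6, 12.3 and 11.8 counts and then 177, 146 and 85.3, a rise of 3.16 (limma adjusted p = 0.000363). The others rose by 1.78 (AT1G72900), 2.06 (AT1G72920), 1.40 (TIR) and 1.07 (AT1G72940). AT1G72910 shares 301 of its 1727 stretches of 50 bases with TIR, so reads may have been split between them. On chromosome 4 the uncharacterized genes AT4G27652, AT4G27654 and AT4G27657 rose by 1.54, 3.15 and 2.11. ERF6 and ERF-1 lie 5041 bases apart on opposite strands. EMB2744, a pentatricopeptide repeat protein that rose by 2.12 from 8.81, 8.98 and 13.6 to 57.0, 40.5 and 48.0 counts, overlaps the EF-hand gene AT5G39670 by 67 bases tail to tail, and reads of one cannot be told from those of the other within the overlap unless strand was used.

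AT1G66500 and AT5G43620, a pair of paralogues annotated as pre-mRNA cleavage complex proteins on different chromosomes, rose by 2.11 and 1.99. The first had 47.0, 46.0 and 55.4 counts and then 230, 238 and 183, and the second 37.2, 39.3 and 35.4 and then 155, 161 and 138. They share only 73 of 1533 stretches of 50 bases, so most of their sequence can be told apart. Among nudix hydrolases, which cleave nucleotide diphosphates, 4 of 25 (16.0%) were higher, with NUDT21 and NUDT4 rising by 1.74 and 1.53, and among genes annotated with the domain DUF1645 3 of 7 were. These annotation groups were also made after the values were seen.

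In the 250 bases before the start, the rapid stress response element CGCGTT occurred in 8.76% of the 251 promoters and in 12.6% of those of the 127, against 2.72% of 19383 tested genes and 2.58% of all 37897 promoters of this length, on both strands. The overlapping CAMTA core ACGCGT was found in 5.98%, against 1.76% of those tested. The heat shock element core GAANNTTC occurred in 21.1% against 9.29%, and the W-box core TTGAC in 59.0% against 45.3%. The GCC box GCCGCC was found in 3.98% against 1.97%, and the TGA core TGACG, which overlaps the W-box core in TTGACG, in 21.5% against 19.3%. For the G-box CACGTG the shares were 6.37% and 7.56%. The median GC content of the promoters was 30.4% for the enhanced genes and 31.2% for those tested. These are descriptions of letters in a window, with no test, and a match is not a bound site.

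The earlier times place these levels in sequence, with the libraries at 2 and 4 min sharing the same fit. At 0, 2, 4 and 8 min DIC2 had mean counts of 99.6 ± 9.21, 179 ± 61.1, 493 ± 136 and 1025 ± 184 (SD, n = 3), so that its mean was higher at each later time. ACS6 had 89.2 ± 18.6, 108 ± 39.1, 197 ± 55.7 and 412 ± 38.6 counts at the same times. CAF1a had 234 ± 32.4, 302 ± 47.1, 959 ± 295 and 985 ± 164, and STZ had 210 ± 8.59, 465 ± 143, 1382 ± 534 and 1662 ± 333. In both of these the libraries at 4 and 8 min overlapped, whereas those of DIC2 and ACS6 did not. Tested across all transcripts, 8 min against 4 min gave 0 higher and 0 lower calls (0.0% in each direction) with limma, at a lowest adjusted p of 0.0654, although 343 transcripts were higher and 203 lower at an unadjusted p under 0.05. DESeq2 and edgeR were not run on this comparison.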

How the data were processed

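Normalized counts from 12 libraries were used. Reads from a single end were checked with FastQC 0.11.7 and mapped by the authors with STAR 2.4.0.1 to the TAIR10 genome, and the deposited values are a signal: reads counted per gene and divided by DESeq2 1.20.0 size factors. STAR's default keeps reads that map to several places, the counting program is not given in the sources used here, and the libraries were stranded and poly(A)-selected. All values (100%, tolerance 0.001 of a read) were whole multiples of a step, from which reads were recovered. Reads on genes were 15993787 to 26618274 per library at 0 and 8 min.

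Values were tested as log2(normalized count + 1) with limma 3.58.1 (variance trend), in 1 fit to 12 libraries, for 19485 genes with a mean of at least 10, Benjamini-Hochberg adjusted, at 0.05. Since the values are no raw counts, DESeq2 1.42.0 and edgeR 4.0.16 on recovered reads were alternatives, with other pseudocounts, filters, normalization, thresholds, a replicate block, 6 libraries only and leaving out each library. The scripts were tested on simulated data. With 3 against 3 libraries a permutation test cannot go below 0.1.

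Named genes were the 30 largest rises and 10 largest falls, the 10 most abundant called in each direction, called list members and up to 5 other members of each list. The comparison, the gene lists and the motifs were chosen with earlier results of these data known, so they are no independent evidence. Gene models, names and promoters came from RefSeq TAIR10.1 (19384 of 19485 genes matched), and shared sequence was counted as common stretches of 50 bases. R 4.3.3, Python 3.11.15 and matplotlib 3.10.9 were used.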

Additional observations from a re-analysis of the deposited data

How the results depend on the processing

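The count of enhanced transcripts, 251, became 151 with the 6 libraries only, 154 at an adjusted p under 0.01 and 127 with a log2 change of at least 1. It ranged from 151 to 305 when 1 library was left out. The count of reduced transcripts, 10, became 78 with DESeq2, 0 with the 6 libraries only, 0 at an adjusted p under 0.01 and 0 with a log2 change of at least 1, and ranged from 0 to 19 when 1 library was left out. The lowest counts came without 8 min replicate 1 (151 and 0). Without 0 min replicate 3 they were 165 and 4, and leaving out 8 min replicate 2 or replicate 3 gave 19 and 18 reduced transcripts. The cause was not tested. The other pseudocounts, filters and normalizations, and edgeR, kept both counts within 1.5 times. Of the values of 110 named genes under these settings, 1732 kept their direction and side of the threshold, 341 lost the call and 0 reversed.

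Replicate numbers were not found to pair the libraries at 0 min with those at 8 min. Deviations of same-numbered libraries of these times correlated at 0.0769, -0.1761 and -0.2708. Libraries of the other times were not in this check, so it says nothing about pairing over all 12 libraries. At 2 and 4 min replicate 1 had the highest count for DIC2, STZ, CAF1a and ACS6. For STZ at 4 min it had 1992 counts, against 996 and 1159. At 8 min replicate 1 was highest for DIC2 and STZ but not for CAF1a and ACS6. The main fit had no replicate term, and a shared replicate effect was not tested. With a replicate block over 12 libraries the counts were 329 higher and 35 lower, against 251 and 10 without it. Over 6 libraries they were 132 and 2 with the block, against 151 and 0 without it. Depth limits transcripts under about 20 counts, where a few reads set the change.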
